A study of Rattus norvegicus with 24 samples.

Results

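The 8 genes described here encode subunits of the AMPA and kainate classes of glutamate receptor: Gria1, Gria2, Gria3, Gria4, Grik1, Grik2, Grik4 and Grik5. They were taken by name, not by their values, from the 14217 genes that the array annotation names on probe sets with a single symbol, and no filter on intensity was applied. Together they carry 12 of the 31042 probe sets tested, 3 for Gria4, 2 each for Gria2 and Gria3, and 1 for each other gene. A gene is represented by its brightest probe set over all 24 arrays, and its other probe sets are given beside it.

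Messenger RNA had been measured in 4 structures of the spontaneously hypertensive rat (SHR): the neurointermediate lobe of the pituitary (NIL, 5 arrays), the paraventricular nucleus (PVN, 5 arrays), the supraoptic nucleus (SON, 4 arrays) and the rostral ventrolateral medulla (RVLM, 5 arrays). The RVLM of the Wistar-Kyoto rat (WKY), the normotensive strain set against SHR, gave 5 further arrays. All rats were male, aged 10 to 13 weeks, and the labels name no treatment. Each array held RNA pooled from 5 rats, so n counts pools and the spread given is that between pools, not between single rats. All SHR structures come from hypertensive rats, so the comparisons among structures describe SHR only.

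AMPA receptors are tetramers of the subunits GluA1 to GluA4, encoded by Gria1 to Gria4, and carry most fast excitatory transmission in the brain. GluA2, whose transcript is edited by adenosine deaminases, keeps calcium from passing through the channel. Kainate receptors are built from GluK1 to GluK5. GluK1 and GluK2 (Grik1 and Grik2) form channels by themselves, whereas GluK4 and GluK5 (Grik4 and Grik5) bind glutamate with high affinity and need a partner of the other kind. In the PVN and SON glutamate excites the neurons that make vasopressin and oxytocin, and in the RVLM it drives the neurons that set sympathetic outflow to the vessels. The NIL holds the endings of the hypothalamic axons, pituicytes and the melanotrophs of the intermediate lobe, and few neuronal cell bodies.

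Array medians of the deposited intensity lay between 35.9 and 46.5. The summed vasopressin and oxytocin signal lay between 2386 and 3390 in NIL, between 7331 and 10518 in PVN, between 8776 and 10405 in SON and between 20.1 and 32.5 in SHR RVLM. Of the 12 pan-neuronal markers measured, the summed intensity lay between 4817 and 5382 in NIL, between 11296 and 12652 in PVN, between 11066 and 11986 in SON and between 23500 and 27971 in SHR RVLM, against 21612 to 26810 in WKY RVLM. The summed signal of 3 melanotroph markers was 1560 to 2392 in NIL and at most 176 in the other SHR structures, and that of 5 anterior pituitary hormone genes spread from 1302 to 13006 among the NIL arrays. Among the PVN arrays the sum of 3 parvocellular markers spread from 319 to 4640 (median 3770). That of 2 lateral hypothalamic markers spread from 301 to 4482 (median 3679). PVN replicate 3 stood apart from its group: its mean Spearman correlation with the other PVN arrays was 0.912, and it held the highest oligodendrocyte sum (8039; lowest PVN sum 3160) and the highest meningeal sum (8497; lowest PVN sum 487) of the PVN. Values without this array are given where a call, a sign or a count of the genes described changed. In pooled tissue, fewer cells of a type and less RNA per cell cannot be told apart.

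In RefSeq annotation of the assembly GRCr8, Gria1 lies at chr10:41710540-42030105, Gria2 at chr2:168247490-168367616, Gria3 at chrX:125103975-125369690 and Gria4 at chr8:9845421-10320021. Grik1 lies at chr11:40655974-41056966, Grik2 at chr20:53717564-54415283, Grik4 at chr8:51802045-52228751 and Grik5 at chr1:89733736-89795769. Promoter sequences from RefSeq (the same assembly, 250 bases before to 50 bases after the annotated start) were at hand for 5 of the 8 genes. Those of Gria4, Grik1 and Grik2 are shown, because Gria4 was highest in the RVLM whereas Grik1 and Grik2 had their highest means in the NIL (Grik2 without a called difference from PVN), and because their annotated starts lie within 463 bases of the outer end of the gene. Each is printed 5′ to 3′ on the strand of the gene, and capitals mark the matches to the motifs searched on both strands: the GC box GGGCGG, the half-site TGACG of the cyclic AMP response element, the CCAAT box, the TATA box TATAAA and the E-box CANNTG.
Gria4 chr8:10319832-10320131 (-): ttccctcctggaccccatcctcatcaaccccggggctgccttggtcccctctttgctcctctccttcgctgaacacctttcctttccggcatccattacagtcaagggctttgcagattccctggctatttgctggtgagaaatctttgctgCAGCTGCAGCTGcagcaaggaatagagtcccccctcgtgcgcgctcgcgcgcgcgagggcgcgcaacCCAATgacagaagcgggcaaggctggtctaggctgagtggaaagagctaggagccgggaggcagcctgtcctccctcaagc
Grik1 chr11:41056454-41056753 (-): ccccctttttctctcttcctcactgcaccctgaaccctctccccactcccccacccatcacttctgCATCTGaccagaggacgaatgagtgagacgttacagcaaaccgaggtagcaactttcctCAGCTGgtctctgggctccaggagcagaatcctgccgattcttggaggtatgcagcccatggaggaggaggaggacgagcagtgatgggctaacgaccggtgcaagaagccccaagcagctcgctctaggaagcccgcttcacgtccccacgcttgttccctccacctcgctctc
Grik2 chr20:54415234-54415533 (-): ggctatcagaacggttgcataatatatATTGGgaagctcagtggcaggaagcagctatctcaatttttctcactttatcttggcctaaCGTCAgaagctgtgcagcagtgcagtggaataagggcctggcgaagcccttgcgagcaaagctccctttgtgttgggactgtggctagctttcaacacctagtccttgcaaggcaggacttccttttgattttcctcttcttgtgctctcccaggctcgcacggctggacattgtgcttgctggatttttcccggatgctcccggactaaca
The Gria4 window held 1 CCAAT and 2 E-boxes, which lie side by side. The Grik1 window held 2 E-boxes and no other motif, and the Grik2 window held 1 CCAAT and 1 TGACG, both on the opposite strand, and no E-box. Among 33469 rat promoters of the same length, 37.5% held CCAAT, 72.1% an E-box, 21.2% TGACG, 33.1% GGGCGG and 14.2% TATAAA, so none of these matches is rare. The share of G and C was 60.3% for Gria4, 58.7% for Grik1 and 50.3% for Grik2, against a median of 51.7% over all promoters. The windows hold 15, 12 and 8 CpG dinucleotides in the same order of genes, against a median of 7.

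All 8 genes differed between at least 1 pair of SHR structures, and none of the 8 kept 1 level across the 4. The remaining kainate subunit gene, Grik3, was measured but is not among the 8. It is counted with the kainate partners below and was called in no comparison. In the NIL, Gria1 and Gria3 were lower than in the other 3 structures, Gria2 lower than in PVN and RVLM, and Grik1 was at its highest. The RVLM held the highest Gria3, Gria4 and Grik4, PVN and SON held the higher Grik5, and the SON held the lowest Grik4. Differences were tested with limma on log2 intensity over all 31042 probe sets, with Benjamini-Hochberg adjustment, and a gene was called at an adjusted p under 0.05. Structures differ in much of what they express, so each count of receptor genes stands beside the share of all 14217 genes called by the same rule, and the shares of the partner lists are read against the same background.

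Of the 8 genes, 7 were called in NIL against RVLM (2 higher, 5 lower; 56.4% of all genes, 31.7% higher and 24.7% lower). In NIL against PVN 6 were called (2 higher, 4 lower; background 46.1%, 23.9% higher and 22.2% lower), and in NIL against SON 6 (3 higher, 3 lower; background 40.9%, 21.2% and 19.7%). In PVN against RVLM 6 were called (3 higher, 3 lower; background 35.7%, 20.8% and 15%), and in SON against RVLM 5 (1 higher, 4 lower; background 35.7%, 19.9% and 15.8%). PVN and SON, both nuclei with vasopressin and oxytocin neurons, differed in 3 of the 8, all higher in PVN (background 10.8%, 6.22% higher and 4.61% lower). The count of PVN against SON was 1 when only the arrays of these 2 structures entered the fit, and then Grik1 alone was called. The median log2 difference of the 8 genes was -0.99 in NIL against RVLM (0.11 over all genes), -0.41 in NIL against PVN (0.02), -0.00 in NIL against SON (0.03), 0.10 in PVN against RVLM (0.08), -0.67 in SON against RVLM (0.07) and 0.55 in PVN against SON (0.01). Arrays did not overlap for 7 genes in NIL against RVLM (50.4% of all genes), 6 in NIL against PVN (37.1%), 5 in NIL against SON (42.9%), 6 in PVN against RVLM (25.3%), 5 in SON against RVLM (37.5%) and 4 in PVN against SON (13%). These counts describe the 8 genes and do not set them apart from other genes.

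**Figure D1:**
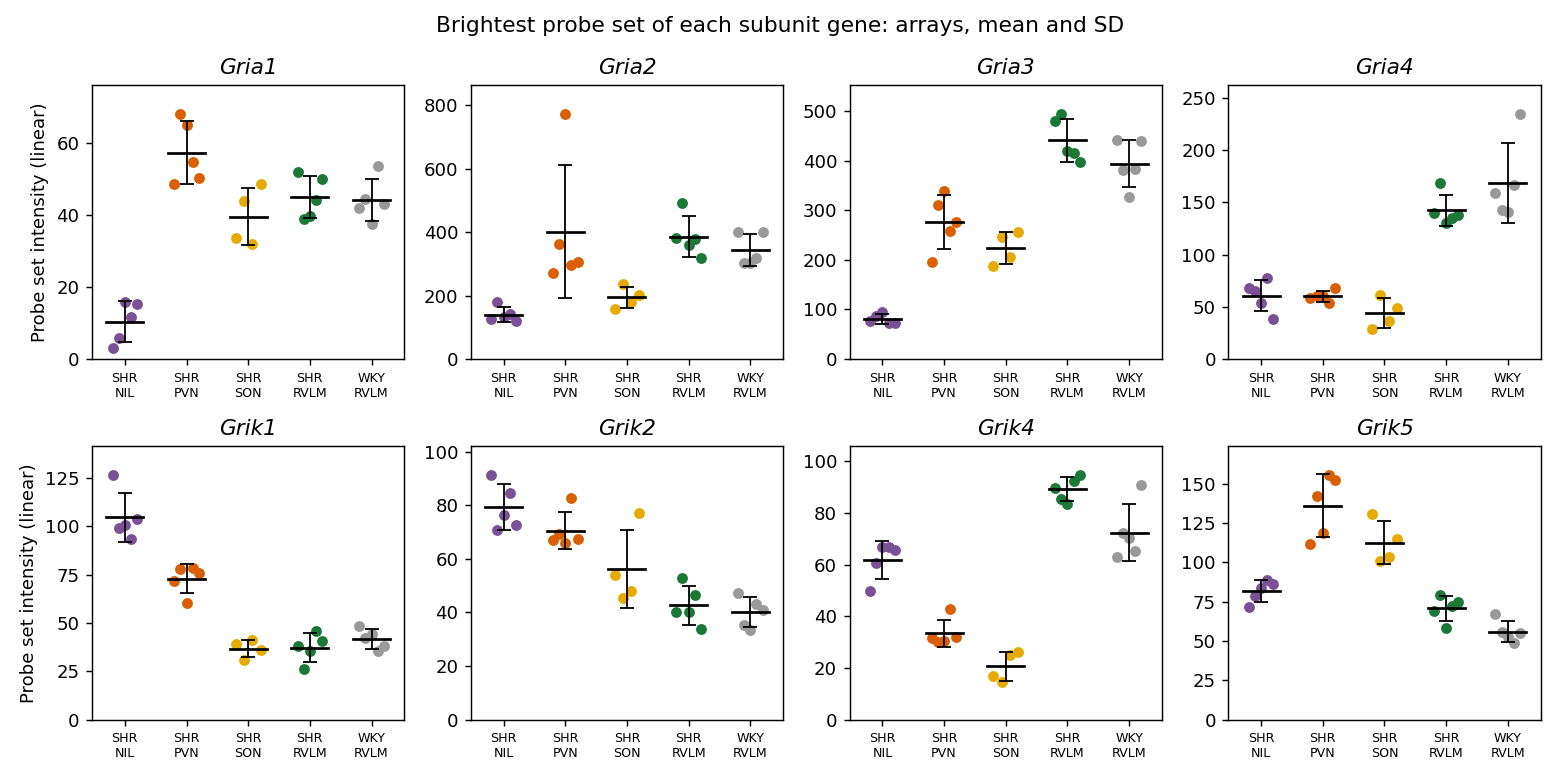
Deposited intensity (linear axis from 0) of the brightest probe set of each of the 8 genes on all 24 arrays, by structure and strain, with 1 point per array, a line at the mean and bars of 1 SD. Grik4 separates all 4 SHR structures with no overlap, Grik1 is highest in NIL (93.3 to 126), and the RVLM of the 2 strains overlaps for every gene.

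Gria1 was low in the NIL, and no difference among the other structures was called. Its intensity was 3.07, 5.93, 15.9, 11.6 and 15.2 on the NIL arrays, 48.5, 67.9, 64.8, 54.7 and 50.1 in PVN, 33.6, 43.9, 32.0 and 48.5 in SON and 51.8, 38.9, 39.6, 44.1 and 49.9 in RVLM. All 5 NIL arrays lay below every array of the other structures and below their own array medians. All PVN arrays lay above all SON arrays, by a narrow gap, and that difference was not called (0.57, limma adjusted p = 0.377). With 64 added to every intensity it was called (0.24, adjusted p = 0.0440). The log2 difference was -2.74 ± 0.330 (SE; limma adjusted p = 5.53e-07) for NIL against PVN, -2.17 ± 0.350 (adjusted p = 3.62e-05) against SON and -2.44 ± 0.330 (adjusted p = 1.75e-06) against RVLM. The size depended on a pseudocount: with 16 added to every intensity, the 3 differences were -1.52, -1.10 and -1.30 and all were still called.

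Gria2, the gene of the subunit that makes AMPA receptors tight to calcium, was read by 2 probe sets of like brightness that gave different orders of the structures. Probe set 1368401_at, the brighter over all 24 arrays, had intensities of 127, 180, 132, 140 and 121 in NIL, 271, 363, 772, 295 and 306 in PVN, 159, 237, 178 and 203 in SON and 381, 493, 359, 378 and 319 in RVLM. The NIL and SON arrays lay below all PVN and RVLM arrays, with some overlap between NIL and SON, and PVN replicate 3 exceeded every other array. By this probe set Gria2 was lower in NIL than in PVN (log2 difference -1.45 ± 0.211, limma adjusted p = 7.31e-06) and than in RVLM (-1.55 ± 0.211, adjusted p = 1.85e-06), and lower in SON than in RVLM (-1.07 ± 0.224, adjusted p = 0.000812). It was higher in PVN than in SON (0.97 ± 0.224, adjusted p = 0.00896). PVN and RVLM did not differ by the test (-0.10 ± 0.211, adjusted p = 0.771), nor did NIL and SON (-0.48 ± 0.224, adjusted p = 0.105). Without PVN replicate 3, PVN was lower than RVLM (-0.38, adjusted p = 0.0284), and with only PVN and SON arrays in the fit the PVN against SON difference had an adjusted p of 0.0792. NIL was called lower than SON with only NIL and SON arrays in the fit (-0.48, adjusted p = 0.00861) and with arrayWeights (-0.48, adjusted p = 0.00907). It was also called with the 2 probe sets averaged (-1.17, adjusted p = 7.62e-07).

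Probe set 1387171_at of Gria2 gave 103, 99.97, 79.4, 81.2 and 79.2 in NIL, 493, 624, 442, 584 and 568 in PVN, 288, 388, 261 and 335 in SON and 306, 353, 368, 287 and 292 in RVLM. Here the PVN arrays lay above all others, the SON and RVLM arrays overlapped, and the NIL arrays lay below all others. The difference was -2.65 for NIL against PVN (limma adjusted p = 6.84e-14), a level 6.29-fold lower in NIL, -1.85 against SON (adjusted p = 1.04e-10) and -1.95 against RVLM (adjusted p = 6.77e-12). PVN exceeded SON by 0.80 ± 0.128 (adjusted p = 0.000537) and RVLM by 0.70 ± 0.121 (adjusted p = 0.000107), whereas SON and RVLM did not differ by the test (-0.10 ± 0.128, adjusted p = 0.596). Both probe sets put NIL below PVN and RVLM and PVN above SON, and they part on how the RVLM compares with PVN and SON. They part also on NIL against SON, which was called by 1387171_at (-1.85) and not by 1368401_at (-0.48).

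The log2 ratio of the 2 probe sets within each array, 1387171_at over 1368401_at, puts a size on that disagreement. This measure was chosen because the probe sets had been seen to part, so its differences are descriptions and no test of them is given. Only differences of the ratio between structures can be read, since the probe sets may differ in how strongly they bind. It averaged -0.66 ± 0.215 in NIL (SD, n = 5), 0.54 ± 0.756 in PVN (n = 5), 0.71 ± 0.127 in SON (n = 4) and -0.26 ± 0.208 in SHR RVLM (n = 5), against -0.37 ± 0.0901 in WKY RVLM (n = 5). PVN replicate 3 had a ratio of -0.80, while the other PVN arrays lay between 0.78 and 0.98 and the SON arrays between 0.55 and 0.86. The ratio of SON differed from that of RVLM by 0.97 and the ratio of NIL from that of SON by -1.37. PVN differed from RVLM by 0.80 with all arrays and by 1.14 without PVN replicate 3. NIL differed from PVN by -1.20 with all arrays and by -1.54 without it. PVN differed from SON by -0.17 with all arrays and by 0.17 without it, so this array sets the sign. NIL and RVLM differed by -0.40, and SHR and WKY RVLM by 0.11. Which transcripts each probe set reads was not tested.

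**Figure D2:**
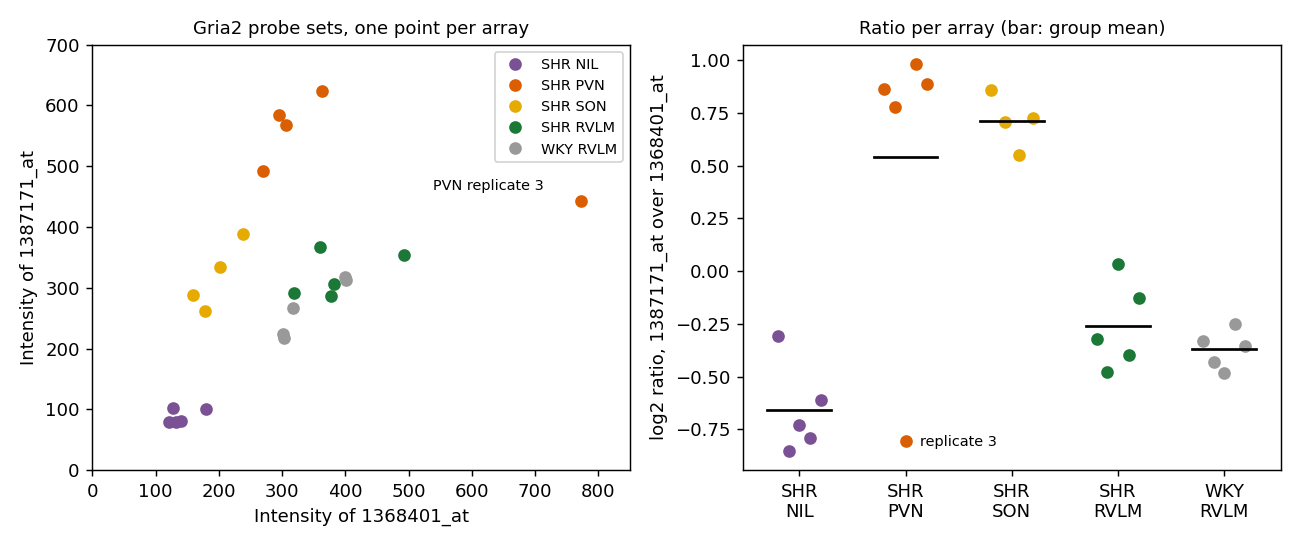
The 2 probe sets of Gria2 on all 24 arrays, 1 point per array coloured by structure and strain: the intensity of 1387171_at against that of 1368401_at (linear axes), and their log2 ratio by group with a line at the mean. The ratio is higher in SON and in 4 of the 5 PVN arrays than in all NIL and RVLM arrays, and PVN replicate 3, at -0.80, lies with the NIL arrays.

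Gria3 had the widest span of the AMPA subunit genes between RVLM and NIL among their brightest probe sets. Its brightest probe set had intensities of 76.2, 85.8, 95.5, 72.3 and 72.2 in NIL, 196, 311, 338, 258 and 276 in PVN, 188, 246, 205 and 256 in SON and 479, 493, 418, 416 and 397 in RVLM. RVLM lay above and NIL below all other arrays, and PVN and SON overlapped. Gria3 was 5.85-fold lower in NIL than in RVLM (log2 difference -2.55, limma adjusted p = 1.62e-13), and also lower than in PVN (-1.80, adjusted p = 9.84e-11) and in SON (-1.48, adjusted p = 8.63e-09). Against RVLM it was lower in PVN (-0.75 ± 0.127, adjusted p = 9.07e-05) and in SON (-1.06 ± 0.135, adjusted p = 2.48e-06), and the PVN against SON difference of 0.32 ± 0.135 was not called (adjusted p = 0.163). With arrayWeights that difference was called (0.35, limma adjusted p = 0.0453). The other probe set, 1368691_at, lay below the array median on all but 1 of the 24 arrays. It gave the same direction with larger differences from RVLM (-4.84 for NIL, -3.24 for PVN and -3.26 for SON, all called), and averaging both probe sets moved PVN against RVLM to -1.99 and SON against RVLM to -2.16.

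Gria4 set the RVLM apart from the other 3 structures. Its brightest probe set, 1396696_at, had intensities between 38.8 and 77.2 in NIL, between 53.5 and 68.0 in PVN, between 29.0 and 61.6 in SON and between 131 and 169 in RVLM, so that RVLM overlapped with no other structure and the other 3 overlapped with each other. Relative to RVLM, Gria4 was lower in NIL (-1.36 ± 0.186, limma adjusted p = 2.02e-06), in PVN (-1.29 ± 0.186, adjusted p = 1.16e-05) and in SON (-1.82 ± 0.197, adjusted p = 2.82e-07). Among NIL, PVN and SON no difference was called: NIL against PVN was -0.06 (adjusted p = 0.833), NIL against SON 0.47 (adjusted p = 0.0723) and PVN against SON 0.53 (adjusted p = 0.105). SON replicate 2 held the highest SON value, and without it Gria4 was called higher in NIL than in SON (0.65, adjusted p = 0.0154) and in PVN than in SON (0.71, adjusted p = 0.0339). Without NIL replicate 5, NIL against SON was likewise called (0.62, adjusted p = 0.0117), as it was with arrayWeights (0.45, adjusted p = 0.0452). Probe set 1383707_at had the same direction against RVLM, with NIL (-2.06, adjusted p = 0.00107) and SON (3.99-fold lower, adjusted p = 0.00459) called and PVN not (-1.01, adjusted p = 0.123). Probe set 1369384_at, below the array median on all 24 arrays, was called for PVN against RVLM (-0.74, adjusted p = 0.031) and for no other pair.

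Grik1, whose product GluK1 can form a kainate channel by itself, was highest in the NIL. Its intensity was 126, 99.2, 100.4, 93.3 and 103.5 in NIL, 71.7, 78.0, 60.4, 78.6 and 75.9 in PVN, 39.0, 31.0, 41.0 and 35.8 in SON and 38.1, 26.0, 35.3, 45.9 and 40.9 in RVLM. NIL lay above PVN, and PVN above SON and RVLM, with no overlap, while SON and RVLM overlapped. Grik1 was 2.83-fold higher in NIL than in SON (limma adjusted p = 4.86e-07) and 2.67-fold higher than in RVLM (log2 difference 1.42, adjusted p = 2.2e-07), and it was higher in PVN than in SON (1.02 ± 0.176, adjusted p = 0.00104) and in RVLM (0.94 ± 0.166, adjusted p = 0.000144). NIL exceeded PVN by 0.48 ± 0.166 (adjusted p = 0.0259), which was not called without NIL replicate 1 (0.40, adjusted p = 0.0852) or without PVN replicate 3 (0.43, adjusted p = 0.0518). SON against RVLM was -0.08 ± 0.176 (adjusted p = 0.770).

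Grik2, whose product GluK2 also forms channels by itself, had its highest mean in the NIL too, over a narrower range. It averaged 79.2 ± 8.57 in NIL (SD, n = 5), 70.5 ± 6.85 in PVN (n = 5), 56.1 ± 14.5 in SON (n = 4) and 42.7 ± 7.24 in RVLM (n = 5). Neighbours in this order overlapped, and only NIL and PVN lay wholly above RVLM. Grik2 was higher in NIL (0.81, limma adjusted p = 9.03e-05) and in PVN (0.68 ± 0.149, adjusted p = 0.00116) than in RVLM. It was higher in NIL than in SON by 0.51 ± 0.158 (adjusted p = 0.0150), which was lost without SON replicate 2 (0.42, adjusted p = 0.0675) or 3 (0.45, adjusted p = 0.0572). NIL against PVN (0.13, adjusted p = 0.553), PVN against SON (0.38, adjusted p = 0.149) and SON against RVLM (0.30, adjusted p = 0.166) were not called, and without SON replicate 4, whose 77.2 was the highest SON value, PVN against SON was called (0.54, adjusted p = 0.0427).

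Grik4, the gene of the high-affinity subunit GluK4, was the only 1 of the 8 to be called in all 6 structure comparisons. Its intensity was 49.7, 60.6, 67.0, 66.8 and 65.7 in NIL, 31.6, 30.1, 30.4, 42.8 and 32.1 in PVN, 16.9, 14.7, 24.9 and 26.2 in SON and 89.8, 85.3, 83.6, 92.3 and 94.7 in RVLM. The 4 structures stood in the order RVLM, NIL, PVN and SON with no overlap between any pair, and the PVN and SON arrays lay below their array medians. Grik4 was 4.69-fold lower in SON than in RVLM (log2 difference -2.23, limma adjusted p = 3.33e-09), lower in PVN than in RVLM (-1.48, adjusted p = 5.24e-07) and lower in NIL than in RVLM (-0.62, adjusted p = 0.00352). NIL exceeded SON by 1.61 (adjusted p = 1.98e-07) and PVN by 0.85 (adjusted p = 0.000262). PVN exceeded SON by 0.75 ± 0.178 (adjusted p = 0.0105), with an adjusted p of 0.129 when only the arrays of those 2 structures were fitted.

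Grik5, the gene of the high-affinity subunit GluK5, had its highest level in the hypothalamic nuclei. Its intensity was 71.5, 78.7, 83.8, 88.8 and 86.2 in NIL, 111, 143, 119, 156 and 152 in PVN, 131, 101, 104 and 115 in SON and 69.1, 79.6, 58.2, 72.6 and 74.6 in RVLM. All PVN and SON arrays lay above all NIL and RVLM arrays, and within each of these pairs the structures overlapped. PVN exceeded RVLM by 0.89 (1.85-fold, limma adjusted p = 1.29e-06), SON exceeded RVLM by 0.59 (adjusted p = 0.000375), and NIL was below PVN (-0.77, adjusted p = 4.49e-06) and SON (-0.47, adjusted p = 0.00244). PVN against SON (0.30 ± 0.114, adjusted p = 0.118) and NIL against RVLM (0.12 ± 0.107, adjusted p = 0.379) were not called. With arrayWeights PVN against SON was called (0.37, limma adjusted p = 0.0235). Grik4 and Grik5, whose products are both of the high-affinity kind, had different orders: NIL and RVLM held the higher Grik4, and PVN and SON the higher Grik5. That contrast between the 2 genes was read from the values and was not tested.

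**Figure D3:**
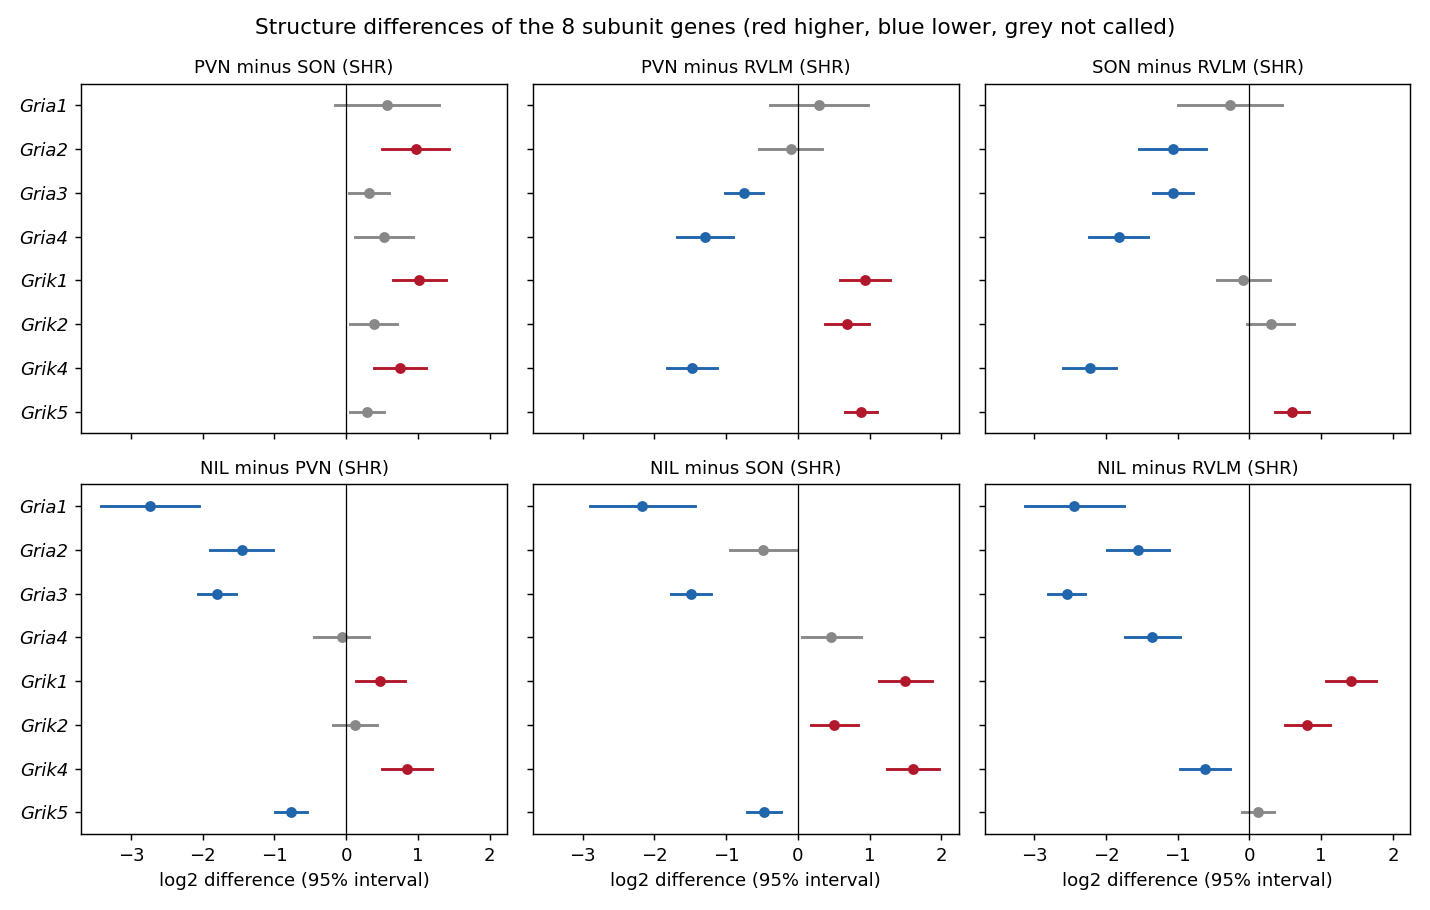
The log2 difference of each of the 8 genes (brightest probe set) in the 6 pairwise comparisons of SHR structures, with its 95% confidence interval from limma. Gria1 to Gria3 lie below 0 in all 3 NIL comparisons, Grik1 and Grik2 lie above 0 in the same 3, and Gria4 lies below 0 in each comparison with RVLM. The interval of Grik2 in NIL minus PVN includes 0 (-0.18 to 0.43).

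The low Gria1, Gria2 and Gria3 signals of the NIL came with lower neuronal, astrocyte and oligodendrocyte markers. Of the 12 pan-neuronal markers, 0 were higher and 11 lower in NIL than in PVN, 0 and 10 against SON and 0 and 11 against RVLM, with a median log2 difference of -1.83, -1.29 and -2.25 in that order (medians over all genes 0.02, 0.03 and 0.11). The shares called were 91.7%, 83.3% and 91.7%, against 46.1%, 40.9% and 56.4% of all genes, and without PVN replicate 3 the count against PVN was 10. The RVLM also exceeded the nuclei in these markers: 0 were higher and 8 lower in PVN than in RVLM, and 1 higher and 10 lower in SON than in RVLM (66.7% and 91.7% called, against 35.7% of all genes in both), while 3 were higher and 0 lower in PVN than in SON (25% against 10.8%). Those 3 were 2 without PVN replicate 3, and 1 with probe sets averaged or with only these 2 structures in the fit. The oligodendrocyte sum lay between 627 and 748 in NIL, between 3160 and 8039 in PVN, between 4402 and 4801 in SON and between 12463 and 15661 in RVLM. On all 5 NIL arrays 1 of the 12 neuronal and 3 of the 5 oligodendrocyte markers lay below the array median, and none was at 0. In NIL, Grik1 was called higher than in PVN, SON and RVLM, and Grik2 higher than in SON and RVLM. Grik2 (0.13, limma adjusted p = 0.553) and Gria4 (-0.06, adjusted p = 0.833) were not called in NIL against PVN. The part of the cell type markers in the differences of the receptor genes was not tested.

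AMPA receptors are carried and tuned by auxiliary subunits. The list used here held 16 genes of such subunits and of proteins associated with the receptor, and 13 had a probe set. Cpt1c, Frrs1l, Porcn and Sacm1l are of the associated kind, and calls of Cpt1c, Porcn and Sacm1l enter the counts. Compared with PVN, 0 were higher and 6 lower in NIL (46.2% called, against 46.1% of all genes; 0 and 7 without PVN replicate 3), compared with SON 0 and 3 (23.1% against 40.9%), and compared with RVLM 1 and 7 (61.5% against 56.4%). The shares called thus lay near or below those of all genes. Cacng3, a subunit of the transmembrane AMPA receptor regulatory protein family, was lower in NIL (-4.75 against PVN, -5.34 against SON and -4.45 against RVLM), with a NIL mean of 5.59 ± 10.0 (SD, n = 5). With 16 added to every intensity these differences were -1.82, -2.29 and -1.59, all called. Cacng2, or stargazin, was lower than in RVLM in NIL (-1.53), PVN (-0.76) and SON (-0.97). It has 2 probe sets, and with these averaged PVN against RVLM was not called (-0.32, limma adjusted p = 0.241). So averaged, NIL (-2.88) and SON (-0.68) were still called lower than RVLM. NIL against SON was then called as well (-2.19, against -0.57 and not called by the brightest probe set). Cnih2, a cornichon that slows the closing of the channel, was lowest in the RVLM. Its mean was 211 ± 17.0 in NIL, 315 ± 27.6 in PVN (n = 5 each), 226 ± 41.8 in SON (n = 4) and 87.6 ± 13.3 in RVLM (n = 5), and it was higher than in RVLM in NIL (1.19), PVN (1.81) and SON (1.28) and lower in NIL than in PVN (-0.62). Across the nuclei, 2 of the 13 were higher and 2 lower in PVN than in RVLM (30.8% against 35.7% of all genes; 1 and 2 without PVN replicate 3), 1 and 2 in SON than in RVLM (23.1% against 35.7%), and 1 and 0 in PVN than in SON (7.69% against 10.8%), where the 1 was Cnih2 (0.52) and was not called without SON replicate 1 or SON replicate 4. All these differences are on the log2 scale, and those named were called at an adjusted p under 0.05 by limma unless stated otherwise. The median log2 difference of the 13 was -0.54, -0.45 and -0.37 in NIL against PVN, SON and RVLM, and 0.08, -0.14 and 0.12 in PVN against RVLM, SON against RVLM and PVN against SON (medians over all genes 0.08, 0.07 and 0.01).

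Of the kainate receptor partners, 4 of 5 listed were measured: the auxiliary subunits Neto1 and Neto2, the synaptic organiser C1ql3 and the remaining kainate subunit gene, Grik3. In NIL, Neto1 had a mean of 0.888 ± 0.443 (SD, n = 5), near the bottom of the scale, and was lower than in PVN (-4.66), SON (-5.35) and RVLM (-4.95). With 16 added to every intensity these were -1.16, -1.55 and -1.30, all called. Neto2 was lower in NIL too (-1.43, -1.62 and -1.28 in the same order). Both auxiliary subunits were thus lower in the structure where Grik1 was highest. C1ql3 was higher in PVN than in SON (2.21) and lower in SON (-3.19) and in NIL (-2.13) than in RVLM. With 16 added to every intensity these were 0.89, -1.55 and -1.20, all called. Grik3 was called in no comparison. In counts, 0 of the 4 were higher and 2, 2 and 3 lower in NIL against PVN, SON and RVLM, 0 were called in PVN against RVLM (0 also at an unadjusted p under 0.05, against 12354 of the 31042 probe sets), 0 higher and 1 lower in SON against RVLM, and 1 higher and 0 lower in PVN against SON. In PVN against RVLM 1 was called lower with 16 or 64 added, or with only these 2 structures in the fit. With 16 added it was C1ql3 (-0.66, limma adjusted p = 0.00587). The shares called were 50%, 50%, 75%, 0%, 25% and 25%, against 46.1%, 40.9%, 56.4%, 35.7%, 35.7% and 10.8% of all genes. Neto1 and C1ql3 were dim: with genes under the 40th percentile of intensity left out, 1 was called in each NIL comparison and none in SON against RVLM or PVN against SON. The median of the 4 in those 6 comparisons was -1.30, -0.74, -1.71, -0.07, 0.37 and -0.39, so in SON against RVLM the median and the single call differ in sign, as they do in PVN against SON.

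Scaffold and trafficking partners moved in both directions, with 17 of 20 measured. In NIL against PVN 4 were higher and 8 lower (70.6% called, against 46.1% of all genes), against SON 2 and 6 (47.1% against 40.9%), and against RVLM 4 and 7 (64.7% against 56.4%). Without PVN replicate 3, NIL against PVN gave 2 and 7. Pick1, which binds the GluA2 tail, was higher in NIL than in all 3 structures (0.75, 0.93 and 0.93 against PVN, SON and RVLM), and Nsf, the fusion ATPase that binds the same tail, was lower in NIL than in all 3 (-2.36, -1.90 and -2.81). In PVN against RVLM 6 were higher and 3 lower (52.9% against 35.7% of all genes): Camk2a, a kinase that phosphorylates GluA1, was higher (2.18), as were Dlg4, which encodes PSD-95 (0.60), and Nptxr, the receptor of the pentraxins that cluster AMPA receptors (1.11), while Nptx1, a secreted pentraxin, was lower (-0.85). In SON against RVLM 3 were higher and 2 lower (29.4% against 35.7%; 1 and 2 with probe sets averaged), with Nptx1 at -2.79. In PVN against SON 5 were higher and 1 lower (35.3% against 10.8%), among them Nptx1 (1.93), Camk2a (0.72) and Dlg4 (0.67). The total of 6 was 3 without PVN replicate 5, SON replicate 3 or SON replicate 4, and 2 with probe sets averaged. So averaged, Camk2a (0.40, limma adjusted p = 0.337) and Dlg4 (0.60, adjusted p = 0.0517) were not called in PVN against SON. Nor was Nptxr in PVN against RVLM (0.42, adjusted p = 0.0588), where Camk2a (1.44) and Dlg4 (0.61) were still called. The median log2 difference of the 17 was -0.54, -0.10 and 0.05 in NIL against PVN, SON and RVLM, 0.19 in PVN against RVLM, 0.00 in SON against RVLM and 0.43 in PVN against SON.

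Adarb1 encodes ADAR2, the deaminase that edits the Gria2 codon which sets calcium permeability, and all 3 listed editing enzymes were measured. Adarb1 averaged 174 ± 22.4 in NIL (SD, n = 5), 341 ± 68.1 in PVN (n = 5), 230 ± 20.5 in SON (n = 4) and 822 ± 59.0 in RVLM (n = 5). It was lower than in RVLM in NIL (-2.34), PVN (-1.34) and SON (-1.92), and lower in NIL than in PVN and than in SON (-0.43). Adar was lower in NIL than in PVN (-0.57) and SON (-0.40) and higher in PVN (0.56) and SON (0.39) than in RVLM. Adarb1 was higher in PVN than in SON (0.57), and Adarb2 was called in no comparison. In counts, 0 were higher and 2, 2 and 1 lower in NIL against PVN, SON and RVLM, 1 higher and 1 lower in PVN and in SON against RVLM, and 1 higher and 0 lower in PVN against SON. With 3 genes, a share called is too coarse to set beside that of all genes. The calls depended on the probe set: Adar and Adarb1 have 3 each, and with these averaged neither was called in NIL against PVN (-0.10, adjusted p = 0.560, and -0.48, adjusted p = 0.165) or NIL against SON (0.05, adjusted p = 0.811, and 0.21, adjusted p = 0.608). So averaged, Adarb1 was still lower than in RVLM in NIL (-0.94, adjusted p = 0.00639) and SON (-1.15, adjusted p = 0.00401) but was not called in PVN (-0.45, adjusted p = 0.221) or in PVN against SON (0.70, adjusted p = 0.144), and Adar was called higher than in RVLM in NIL (0.32, adjusted p = 0.0449) and PVN (0.42, adjusted p = 0.0163) and not in SON (0.27, adjusted p = 0.148). The smaller of these differences rest on single libraries: the 2 calls in NIL against SON became 1 or 0 without any 1 of the 5 NIL or 4 SON arrays, the 1 in PVN against SON became 0 without PVN replicate 1 or SON replicate 1, 3 or 4, and the 2 in SON against RVLM became 1 without SON replicate 1 or 2 or RVLM replicate 1 or 4. Medians of the 3 were -0.57, -0.40 and -0.00 for NIL against PVN, SON and RVLM, and 0.34, -0.08 and 0.42 for PVN against RVLM, SON against RVLM and PVN against SON. The editing itself is not measured by these arrays.

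Of the genes that release and clear glutamate, 7 of 9 were measured. All 7 were lower in NIL than in PVN and than in RVLM, and 6 than in SON, and none was higher (100%, 100% and 85.7% called, against 46.1%, 56.4% and 40.9% of all genes). Slc17a6, the vesicular transporter VGLUT2, averaged 55.5 in NIL, 799 in PVN, 652 in SON and 699 in RVLM, and Slc1a2, the glial transporter GLT-1, was lower in NIL (-3.63, -3.56 and -4.89 against PVN, SON and RVLM). Its means of 2.18 in NIL, 24.9 in PVN and 24.1 in SON lie below the array medians, and with 16 added to every intensity the differences were -1.20, -1.15 and -2.08, all called. Slc17a6 was not called among PVN, SON and RVLM. In PVN against RVLM 2 of the 7 were higher and 3 lower, and in SON against RVLM likewise 2 and 3: Slc1a1 and Slc1a3 were higher, and Slc1a2, Glul and Gls2 lower, in both nuclei (71.4% called in both, against 35.7% of all genes). With probe sets averaged, Slc1a1 and Slc1a3 were not called in SON against RVLM (0.21, adjusted p = 0.165, and 0.04, adjusted p = 0.843), nor Slc1a3 in PVN against RVLM (0.19, adjusted p = 0.246). In PVN against SON limma called 0 of the 7 (10.8% of all genes), with 3 at an unadjusted p under 0.05, against 6574 of the 31042 probe sets. It called 1 after quantile normalization or with intensity as deposited, and 2 with 64 added. The medians were -1.74, -1.43 and -1.39 in NIL against PVN, SON and RVLM, 0.14 in PVN against RVLM, -0.38 in SON against RVLM and 0.30 in PVN against SON.

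Over the 19 SHR arrays, the genes whose log2 intensity followed each receptor gene most closely were ranked by Pearson's r among 10595 genes. These values are descriptions, since the arrays share their structure and the differences between structures set most of r. Gria3 had the closest followers: Hecw1 (r = 0.990), Ryr2 (0.986) and Bcas1 (0.985), the last a gene of myelinating glia. Gria1 was followed by Pnoc (0.952), Nrxn3 (0.948) and Sertm1 (0.934), Gria4 by Pcdh9 (0.942), Esrrg (0.937) and Mab21l2 (0.934), and Gria2, by its brightest probe set, by LOC102555617 (0.937), Gnao1 (0.923) and Cmip (0.907). Among the kainate subunit genes, Grik1 was followed by Tead1 (0.950), Tspo (0.942) and Sde2 (0.939), and Grik2 by Ehmt2 (0.925), Usp48 (0.916) and Tacc2 (0.907). Grik4 was followed by Tmem200c (0.955), Tesc (0.945) and Htra1 (0.943), and Grik5 by Celf5 (0.939), Mok (0.928) and Ly6h (0.921). None of the 8 was among the 3 closest genes of another.

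The strain comparison asked whether the RVLM of hypertensive rats differs in its AMPA and kainate subunits from that of normotensive rats. None of the 8 was called by limma, in SHR against WKY RVLM, where 0.886% of all genes were called (0.387% higher and 0.499% lower), and the arrays of the strains overlapped for all 8 (2.97% of all genes did not overlap). At an unadjusted p under 0.05 there were 2 of the 8, Grik4 and Grik5, against 2607 of the 31042 probe sets. The median difference of the 8 was 0.09, against -0.03 over all genes.

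Grik5 had intensities of 69.1, 79.6, 58.2, 72.6 and 74.6 in SHR RVLM, against 67.1, 56.0, 52.7, 49.1 and 55.2 in WKY RVLM. All but 1 SHR array lay above all WKY arrays. The log2 difference was 0.31 ± 0.123 (95% confidence interval 0.05 to 0.57; unadjusted p = 0.0245, adjusted p = 0.476, limma). Grik4 had 89.8, 85.3, 83.6, 92.3 and 94.7 in SHR RVLM, against 63.2, 72.3, 70.4, 65.3 and 91.0 in WKY RVLM. WKY replicate 5 lay among the SHR arrays and the other 4 WKY arrays below them. The difference was 0.28 ± 0.128 (95% confidence interval 0.01 to 0.55; unadjusted p = 0.0444, adjusted p = 0.573). Neither passes the correction, so both are reported as not called.

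For the other 6 genes the strain differences were smaller or less even. Gria4 averaged 143 ± 15.0 in SHR RVLM and 169 ± 38.3 in WKY RVLM (SD, n = 5 each), a difference of -0.25 ± 0.141 (limma adjusted p = 0.694), and the high WKY mean includes replicate 5 at 234. Its probe sets 1383707_at and 1369384_at gave 0.02 (adjusted p = 0.985) and -0.24 (adjusted p = 0.819). Gria2 gave 0.13 ± 0.117 (adjusted p = 0.822) by 1368401_at and 0.24 ± 0.128 (adjusted p = 0.672) by 1387171_at, and Gria3 gave 0.14 (adjusted p = 0.785) by its brightest probe set and 0.77 (adjusted p = 0.675) by the dim one. Gria1, at 44.9 ± 5.86 in SHR RVLM and 44.1 ± 5.91 in WKY RVLM, had a difference of -0.00 ± 0.162 (adjusted p = 0.999), and its sign changed with the scaling. Grik1 gave -0.21 ± 0.184 (adjusted p = 0.821) and Grik2 0.06 ± 0.164 (adjusted p = 0.957). Over the 8 genes the 95% confidence intervals reached from -0.61 (Grik1) to 0.57 (Grik5), for the brightest probe sets, and differences within each interval were not resolved with 5 pools a strain.

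The partner genes gave the same count. Of the AMPA auxiliary and associated genes (13), kainate partners (4), scaffold and trafficking genes (17), editing enzymes (3), release and uptake genes (7) and pan-neuronal markers (12), limma called 0 higher and 0 lower in SHR RVLM, and at an unadjusted p under 0.05 there were 2, 0, 1, 0, 1 and 0 in that order. Of all 31042 probe sets, 2607 had an unadjusted p under 0.05. Without SHR RVLM replicate 1, and likewise after quantile normalization, 1 of the AMPA auxiliary and associated genes was called higher. The median differences were 0.02, 0.13, 0.05, -0.05, 0.03 and -0.00 in that order, against -0.03 over all genes. The neuronal marker sums of the strains overlapped (23500 to 27971 in SHR RVLM, 21612 to 26810 in WKY RVLM).

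**Figure D4:**
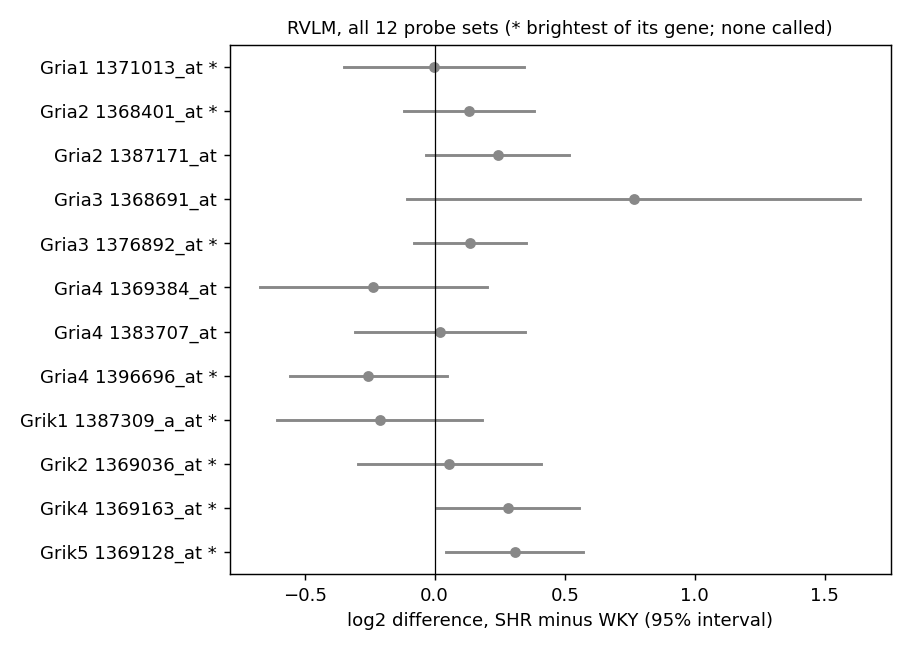
The log2 difference of each of the 12 probe sets in SHR minus WKY RVLM, with its 95% confidence interval from limma (5 pools a strain). The intervals of Grik4 and Grik5 lie just above 0, all others include 0, and none was called after adjustment over 31042 probe sets.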

How the data were processed

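Messenger RNA was measured on 24 Affymetrix rat arrays, each a pool of 5 rats, and groups follow the strain and tissue labels. The authors deposited linear probe set intensity. The submitters' processing notes name GCOS 1.2 without its settings, and the 2% trimmed mean of the deposited intensity was about 100 on each array. Per the labels' protocols, RNA was amplified before labelling. Nothing says whether pools shared rats across structures, so p-values measure the spread between pools only.

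The table held 31099 probe sets. The 57 controls were left out, and 31042 were tested. The array's annotation gave 1 gene to 20826, several to 436 and none to 9780. Intensities were taken to log2 with no pseudocount and no intensity filter, and arrays were shifted to a common median. The tests were those of limma 3.58.1 (lmFit, then eBayes with an intensity trend, in R 4.3.3), in 1 fit of the 19 SHR arrays and 1 of the 10 RVLM arrays, with Benjamini-Hochberg adjustment over all probe sets. SE refers to the log2 difference. The number of arrays limits the precision.

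The 8 genes, the gene lists (6 partner and neuronal lists and 12 lists of cell type markers) and the tests were chosen with earlier results of these data known. All 8 genes are described whatever their result. Of the partner lists any called gene could be named, and likeness names 3 genes per receptor gene, drawn from genes above the 40th percentile of intensity. Alternatives were no median shift, quantile normalization, adding 16 or 64 before log2, a filter at the 40th percentile, no intensity trend, arrayWeights, averaging a gene's probe sets, fitting only the arrays of the 2 structures compared, a replicate block, and leaving out each array. The deviations of same-numbered arrays of different groups from their group means correlated weakly: over 32 pairs r lay between -0.12 and 0.17, and 4 exceeded 0.1. For PVN with SON r was above 0 for every number (0.10, 0.08, 0.09 and 0.17 for replicates 1 to 4). Pairs of unlike number were not compared, so these values do not settle whether pools shared rats. The Gria2 ratio and the choice of brightest probe set over the arrays of a fit were chosen after seeing the data. Each fit was first tested on simulated data with 200 of the 31042 probe sets changed. The strain fit called 41% of changes of log2 size 1 and 10% of those of size 0.5, with 0 false calls. In PVN against SON the shares were 29% and 12%, with 2 false calls. Most planted changes of these sizes were thus missed.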

Additional observations from a re-analysis of the deposited data

Results flagged for a closer look

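In groups of 4 or 5 arrays, an array was set apart by Dixon's test at the 95% level in 8 of the 60 combinations of probe set and group, where chance gives about 1 in 20, or 3.0. Gria2 by 1368401_at had an intensity of 772 on PVN replicate 3, against 271 to 363 on the other PVN arrays. The dim Gria3 probe set 1368691_at had 34.9 on the same array (others 1.23 to 2.93), 17.6 on SON replicate 1 (others 1.19 to 3.05) and 4.88 on WKY RVLM replicate 4 (others 24.2 to 29.4). Gria4 by 1396696_at had 169 on SHR RVLM replicate 2 (others 131 to 140) and 234 on WKY RVLM replicate 5 (others 141 to 167). PVN replicate 4 was high for Grik2, at 82.6 (others 66.0 to 69.2), and for Grik4, at 42.8 (others 30.1 to 32.1).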

How the results depend on the processing

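The counts of receptor genes called (0 in the strain comparison, 3 in PVN against SON, 6 in PVN against RVLM, 5 in SON against RVLM, 6 in NIL against PVN, 6 in NIL against SON and 7 in NIL against RVLM) stayed within 1.5 times under every alternative run, except that PVN against SON gave 5 with arrayWeights and 1 with only the 2 structures in the fit. With each array left out the counts were 0 to 0, 3 to 4, 6 to 7, 5 to 5, 5 to 6, 5 to 7 and 7 to 7 in that order. With the replicate number as a block the counts were 0, 3, 6, 5, 6, 6 and 7, and whether the numbers pair samples is not given; among the gene lists it left 1 call in place of 2 for the editing enzymes in NIL against SON. Without PVN replicate 3, PVN against SON kept 3, PVN against RVLM gave 7 and NIL against PVN 5.

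Over 1200 combinations of gene, comparison and alternative, 1168 kept their direction and call, 7 lost the call, 13 gained it and 12 changed sign, none of which had been called. Gria1 in SHR against WKY RVLM was 0.0260 as deposited, 0.00869 after quantile normalization, and -0.0774 to 0.0823 with each array left out, above 0 without SHR replicate 2 or 3 or WKY replicate 4 or 5. Grik2 there was -0.0228 (without WKY replicate 3) to 0.116. Gria2 in PVN against RVLM was 0.30 as the mean of its probe sets, 0.70 by the probe set brightest over the SHR arrays (called), and -0.382 (called, without PVN replicate 3) to 0.0233 (without PVN replicate 4) with each array left out. By the probe set brightest over the SHR arrays, Gria2 lost its call in SON against RVLM (-0.10, limma adjusted p = 0.596) and gained 1 in NIL against SON (-1.85). Gria4 in NIL against PVN was -0.146 to 0.0936 (without NIL replicate 5), and Grik1 in SON against RVLM -0.232 to 0.00707 (without RVLM replicate 4). The pseudocount of 64 shrank log2 differences, as its construction implies, ended no call, and made Gria1 in PVN against SON a call.

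The Gria2 ratio in PVN against SON was 0.17 without PVN replicate 3. Leaving out each array gave -1.46 to -1.32 for NIL against SON and 0.91 to 1.04 for SON against RVLM. It gave -1.54 to -1.09 for NIL against PVN, 0.69 to 1.14 for PVN against RVLM, -0.49 to -0.33 for NIL against RVLM, -0.28 to 0.17 for PVN against SON and 0.04 to 0.17 for SHR against WKY RVLM.

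Of 900 counts of partner-list genes under the alternatives, 57 moved by more than 1.5 times, 28 of them for the 3 editing enzymes. AMPA auxiliary and associated genes in NIL against SON numbered 5 after quantile normalization in place of 3, and in NIL against RVLM 5 with the filter in place of 8. Scaffold and trafficking genes in PVN against SON numbered 2 with probe sets averaged and 3 without an intensity trend or with only the 2 structures, in place of 6. The cause was not tested.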

Other observations

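Markers of other cell types were counted by the same limma calls, which took in 46.1%, 40.9% and 56.4% of all genes in NIL against PVN, SON and RVLM, 35.7% in PVN and in SON against RVLM, and 10.8% in PVN against SON. In NIL, all 3 melanotroph and all 5 anterior pituitary markers were higher, and all 7 astrocyte and all 5 oligodendrocyte markers lower, than in PVN, SON and RVLM. Microglial markers (6 measured) were 3 higher and 0 lower in NIL against PVN, 2 and 0 against SON, 4 and 1 against RVLM, 3 and 0 in SON against RVLM, and 1 and 0 in PVN against RVLM. Oligodendrocyte markers were 0 higher and 5 lower in both PVN and SON against RVLM; astrocyte markers were 1 higher and 5 lower in PVN, and 2 and 2 in SON, against RVLM, and 0 and 4 in PVN against SON. Of 4 precursor markers 0 were higher and 1 lower in NIL against PVN, 0 and 2 against SON, 0 and 1 against RVLM, 0 and 1 in PVN against RVLM, and 1 and 1 in SON against RVLM.

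Of 6 markers of meninges and choroid plexus, 5 were higher and 1 lower in NIL against PVN, 1 and 1 against SON, 4 and 0 against RVLM, 0 and 5 in PVN against SON, 1 and 1 in PVN against RVLM, and 5 and 0 in SON against RVLM. Of 4 endothelial markers 1 was higher and 2 lower in each NIL comparison, and 1 and 1 in PVN and in SON against RVLM. Avp and Oxt were both lower in NIL than in PVN and SON, and higher in NIL, PVN and SON than in RVLM. The 3 parvocellular markers were higher in PVN than in SON and RVLM and lower in NIL than in PVN and SON; 2 were lower in NIL, and 1 in SON, than in RVLM. Both lateral hypothalamic markers were higher in PVN than in SON and RVLM and lower in NIL than in PVN. The 4 catecholamine markers were 0 higher and 2, 1 and 3 lower in NIL against PVN, SON and RVLM, 2 and 2 in PVN against RVLM, 0 and 1 in PVN against SON, and 1 and 1 in SON against RVLM. In PVN against RVLM, 1 melanotroph marker (Tbx19) and 1 anterior pituitary marker (Gh1) were also higher.

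In SHR against WKY RVLM only Tbx19, a pituitary transcription factor of the melanotroph list, was called among the 12 marker lists: it averaged 27.1 in SHR RVLM and 7.97 in WKY RVLM, a log2 difference of 1.63. Both means lie below the array medians.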
